A study of Mus musculus with 6 samples.

Results

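The heat shock chaperones described here are 10 genes whose products fold, refold or hold other proteins. They were chosen by name, and every non-control probe whose transcript accession belongs to one of them was taken. The 10 genes had 18 probes of 39429 on the array and stood among 22863 tested genes. By the compartment of the product, 8 are cytosolic (Hsph1, Hspa8, Hspa4, Dnaja1, Dnajb1, Hsp90aa1, Hsp90ab1 and Hspb1) and 2 are mitochondrial (Hspe1 and Hspd1).

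Chaperones of the HSP70 class bind unfolded stretches of protein in a cycle driven by ATP, which J proteins start by stimulating ATP hydrolysis and HSP110 proteins end by releasing the nucleotide. HSP90 proteins act later on signalling proteins and receptors, small heat shock proteins hold aggregating proteins, and in mitochondria a chamber of HSP60 subunits is closed by a lid of HSP10. Many of these genes are transcribed constantly in neurons, and heat shock factors raise their transcription further when unfolded or oxidised proteins accumulate.

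Hypothalamus RNA of male C57BL/6J mice aged 16 weeks was measured on 6 arrays, 2 for each of 3 genotypes. Trsp-RIPKO mice carry TrspFlox/Flox with RIP-Cre, Trsp-Ins1KO mice carry TrspFlox/Flox with Ins1-Cre, and TrspFF mice carry TrspFlox/Flox with no Cre named, so every group has the floxed alleles. Trsp encodes the transfer RNA that inserts selenocysteine, and per the series' design text its conditional loss raises oxidative stress. RIP-Cre is driven by a rat insulin promoter and Ins1-Cre by the mouse Ins1 gene, drivers known from insulin-producing cells and, for RIP-Cre, from part of the hypothalamus, while the arrays read whole tissue. Mice with Cre and without floxed alleles were not analysed here, and the array names no probe for Trsp, so the deletion was not checked. The labels number the arrays of a genotype and do not tie them to animals, so p-values cover the spread from array to array only, part or all of which may be technical.

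The arrays were alike in signal, with the 75th percentile of processed signal between 1433 and 2205 and 68.9% to 72.0% of probes well above background. Both TrspFF arrays lay on 1 slide and scan and the 4 knockout arrays on another, so against TrspFF slide and genotype cannot be told apart, whereas Trsp-RIPKO against Trsp-Ins1KO was measured within a slide. The deposited value table carries the names Trsp-RIPKO and Trsp-Ins1KO the other way round: its columns so named correlated at 0.9999 or more with scanner arrays of the other knockout and at -0.45 to -0.29 with those of the same name. Names here follow the scanner files, and under the table's names every Trsp-RIPKO value below would be a Trsp-Ins1KO value and the reverse. Of 16 hypothalamic markers 15 were kept. On all arrays Pomc lay between 0.72 and 1.92 and Oxt between 4.61 and 5.80 (log2 levels, defined below). Others were faint, as Sim1 between -7.00 and -4.54 and Six6 between -4.47 and -3.35. The second Trsp-Ins1KO array stood apart in choroid plexus genes. The list of 12 had a mean level of -2.34 there and 0.12 on the first Trsp-Ins1KO array. It had 0.49 and 0.61 on the Trsp-RIPKO arrays and 0.98 and 0.52 on the TrspFF arrays. Not every gene of the list was low there: Otx2 had 0.31, against 0.29 and 0.50 on the Trsp-RIPKO arrays.

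A level is the log2 processed signal of a probe minus the log2 75th percentile of its array, so a level of 0 equals that percentile, and a difference is in log2 units. Levels of different genes come from different probes and are not set against each other. The brightest kept probe stood for a gene, and a gene passed when its adjusted p (limma, Benjamini-Hochberg over 22863 genes) was under 0.05. All 10 members passed the filter on dim probes, and 0 of their 18 probes were saturated on any array. In whole tissue, fewer cells of a type and less RNA per cell cannot be told apart.

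Of the 10 chaperone genes, Hsph1 passed the test in Trsp-Ins1KO against TrspFF and no member passed in Trsp-RIPKO against TrspFF or in Trsp-RIPKO against Trsp-Ins1KO. The shares of all tested genes that passed in those comparisons, in either direction, were 1.83%, 1.63% and 0.0175%. Most of these were lower: 364 lower and 55 higher, 350 lower and 23 higher, and 4 lower and 0 higher. At an unadjusted p under 0.05 the members numbered 6, 3 and 4 in the same order, against 25.8%, 23.8% and 18.3% of all tested genes. In Trsp-Ins1KO, 8 of 10 members had a positive difference from TrspFF, with a median of 0.31, against a median of 0.02 over all tested genes. Of the brightest 10% of tested genes 76.3% were positive there, with a median of 0.18. In Trsp-RIPKO, 5 were positive and 5 negative, with a median of -0.03, against -0.01 over all tested genes. On the arrays of both knockouts, all 10 members lay lower in Trsp-RIPKO than in Trsp-Ins1KO without overlap, as did 35% of all tested genes and 60.2% of the brightest 10%, and quantile normalization turned the sign for Hspa8 and Hsp90ab1. The panels of levels by array show the 10 genes.

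**Figure D1:**
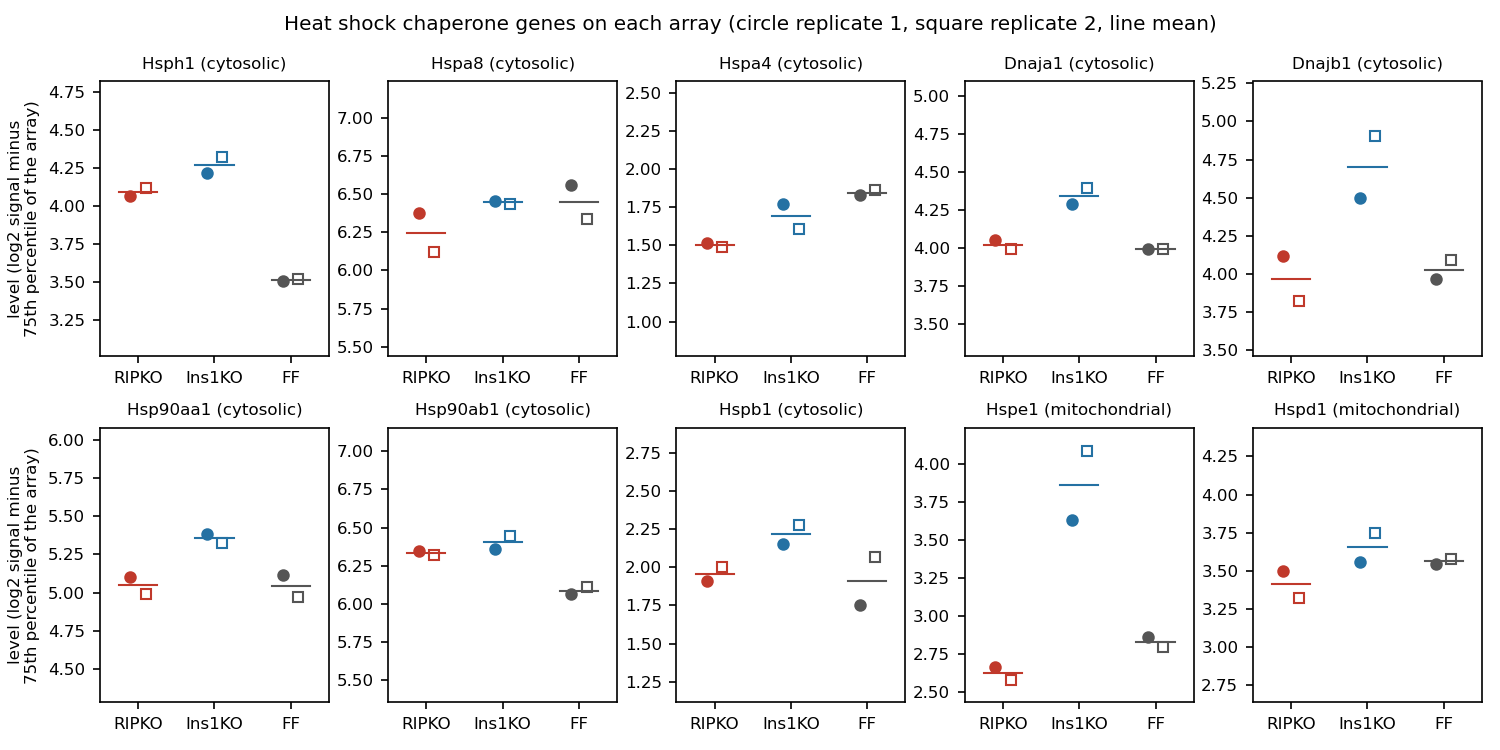
Level of each chaperone gene (log2 processed signal minus the log2 75th percentile of the array, vertical axes of equal span) on the 2 arrays of Trsp-RIPKO (red), Trsp-Ins1KO (blue) and TrspFF (grey), with the group mean as a line. Both Hsph1 values of each knockout lie above both TrspFF values (3.51 and 3.52), and the Hspe1 values of Trsp-Ins1KO (3.63 and 4.08) lie above those of the other groups.

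Hsph1 encodes HSP110, a cytosolic nucleotide exchange factor for HSP70 that also helps to take aggregates apart. Its level was 4.07 and 4.12 in Trsp-RIPKO, 4.22 and 4.32 in Trsp-Ins1KO, and 3.51 and 3.52 in TrspFF. The arrays of each knockout lay above those of TrspFF, and the Trsp-RIPKO arrays lay below the Trsp-Ins1KO arrays. Hsph1 rose in Trsp-Ins1KO by 0.75 (SE 0.0848, 95% interval 0.54 to 0.97, adjusted p = 0.0347), which is 1.69-fold. Leaving out any single array gave 0.70 to 0.81 and ended the call. Each such fit has fewer arrays to estimate the spread, and without a Trsp-RIPKO array the difference itself stays the same. The loss of the call therefore does not show that it rested on each array. In Trsp-RIPKO the difference from TrspFF was 0.58 (SE 0.0848, 95% interval 0.36 to 0.80, adjusted p = 0.0541), which missed the threshold. The direct difference, Trsp-RIPKO minus Trsp-Ins1KO, was -0.18 (95% interval -0.40 to 0.04, adjusted p = 0.311), so the 2 knockouts were not shown to differ in Hsph1.

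A fainter probe of Hsph1 gave the same order of arrays by genotype. Its levels were 2.59 and 2.57 in Trsp-RIPKO, 2.71 and 2.91 in Trsp-Ins1KO, and 2.12 and 2.19 in TrspFF. In a fit over all 28065 kept probes its differences from TrspFF were 0.42 in Trsp-RIPKO (adjusted p = 0.112) and 0.65 in Trsp-Ins1KO (adjusted p = 0.0601), neither past the threshold. In that fit 1.51% of probes passed in Trsp-RIPKO and 1.59% in Trsp-Ins1KO against TrspFF, and 0.0143% between the knockouts.

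The promoter of Hsph1 is shown because it was the member that passed, and that of Hspe1 because this gene had the widest spread over the arrays. Heat shock factors bind repeats of GAA in alternating orientation. Each window holds the 250 bases before a transcript start from RefSeq (GRCm38.p6), and capitals mark TTCNNGAA or GAANNTTC, each of which is its own reverse complement. The Hsph1 window is chr5:149636337-149636586 on the minus strand and the Hspe1 window chr1:55087898-55088147 on the plus strand.
Hsph1: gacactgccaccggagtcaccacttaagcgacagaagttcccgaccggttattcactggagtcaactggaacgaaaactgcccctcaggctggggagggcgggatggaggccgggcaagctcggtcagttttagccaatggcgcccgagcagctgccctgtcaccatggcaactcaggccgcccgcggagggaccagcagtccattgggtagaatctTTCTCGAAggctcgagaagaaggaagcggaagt
Hspe1: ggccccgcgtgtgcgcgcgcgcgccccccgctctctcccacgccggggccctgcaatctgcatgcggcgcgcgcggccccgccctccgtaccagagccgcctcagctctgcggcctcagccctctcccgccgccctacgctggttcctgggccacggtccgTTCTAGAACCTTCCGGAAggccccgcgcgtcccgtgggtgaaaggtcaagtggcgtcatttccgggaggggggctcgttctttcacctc

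The Hsph1 window held TTCTCGAA at 33 to 26 bases before the start, and a second, overlapping window holds the same run at 54 to 47 bases before another start. Windows were found for 7 of the 10 members, 12 windows in all, and none for Hspa8, Hsp90aa1 and Hsp90ab1. Either 8-letter form was in 6 of these 12 windows, and in 12.8% of 32851 windows of the same length over the genome. The 6 windows belong to 5 genes (Hsph1, Dnaja1, Hspb1, Hspe1 and Hspd1), and windows of 1 gene can overlap. A longer run, TTCNNGAA followed by NNTTC or the reverse complement of both, occurred in 0.466% of all windows and in 2 of the 12, 1 of Hspe1 and 1 of Hspd1. These genes lie head to head, and the run is the same stretch of bases: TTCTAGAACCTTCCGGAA at 89 to 72 bases before the Hspe1 start, read on the other strand at 144 to 127 bases before the start of 1 of the 2 Hspd1 windows. Dnaja1 held GAAAATTC in 1 of its 3 windows, and Hspb1 held GAAGTTTC and GAACCTTC. No form was found in these windows of Hspa4 and Dnajb1. A match is a description of the letters and does not show that a factor binds there.

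Hspa4, the other HSP110-type exchange factor among the members, differed from TrspFF in the opposite direction to Hsph1. Its level was 1.52 and 1.49 in Trsp-RIPKO, 1.77 and 1.61 in Trsp-Ins1KO, and 1.83 and 1.86 in TrspFF. The arrays of both knockouts lay below those of TrspFF, with differences of -0.34 (adjusted p = 0.133) in Trsp-RIPKO and -0.15 (adjusted p = 0.348) in Trsp-Ins1KO. The 2 fainter Hspa4 probes also had negative differences, from -0.30 to -0.14 in Trsp-RIPKO and from -0.23 to -0.08 in Trsp-Ins1KO, with overlapping arrays for 1 of them in Trsp-RIPKO.

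Hspa8, the HSP70 that cells make constantly, had levels of 6.37 and 6.12 in Trsp-RIPKO, 6.46 and 6.44 in Trsp-Ins1KO, and 6.56 and 6.34 in TrspFF. The arrays overlapped between each knockout and TrspFF. Its difference from TrspFF was -0.20 in Trsp-RIPKO (95% interval -0.54 to 0.14, adjusted p = 0.397) and -0.00 in Trsp-Ins1KO (95% interval -0.34 to 0.34, adjusted p = 0.994). The other 2 probes gave -0.33 and -0.09 in Trsp-RIPKO and 0.09 and 0.11 in Trsp-Ins1KO, none past the threshold.

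Both J proteins had higher levels on the Trsp-Ins1KO arrays than on the other 4. Dnaja1, a J protein that is farnesylated, had levels of 4.05 and 3.99 in Trsp-RIPKO, 4.29 and 4.39 in Trsp-Ins1KO, and 3.99 and 3.99 in TrspFF. The difference from TrspFF was 0.03 in Trsp-RIPKO (adjusted p = 0.855) and 0.35 in Trsp-Ins1KO (SE 0.0857, adjusted p = 0.105). Quantile normalization gave 0.20 in Trsp-Ins1KO. A second, faint Dnaja1 probe gave 0.22 in Trsp-RIPKO (adjusted p = 0.294) and 0.53 in Trsp-Ins1KO (adjusted p = 0.0856), with both knockouts above TrspFF on every array.

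Dnajb1, the J protein that works with HSP110 and HSP70 in taking aggregates apart, had levels of 4.12 and 3.82 in Trsp-RIPKO, 4.50 and 4.90 in Trsp-Ins1KO, and 3.97 and 4.09 in TrspFF. The Trsp-Ins1KO arrays lay above the other 4 and lay apart from each other. The difference from TrspFF was -0.06 in Trsp-RIPKO (adjusted p = 0.857) and 0.67 in Trsp-Ins1KO (SE 0.182, 95% interval 0.20 to 1.15, adjusted p = 0.117). Without the second Trsp-Ins1KO array the value in Trsp-Ins1KO was 0.47.

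Neither HSP90 gene passed the test. Hsp90aa1, the inducible form, had levels of 5.10 and 4.99 in Trsp-RIPKO, 5.38 and 5.33 in Trsp-Ins1KO, and 5.12 and 4.97 in TrspFF. Its difference from TrspFF was 0.00 in Trsp-RIPKO (95% interval -0.25 to 0.26, adjusted p = 0.989) and 0.31 in Trsp-Ins1KO (adjusted p = 0.144). The Trsp-RIPKO arrays overlapped with TrspFF, and the Trsp-Ins1KO arrays lay above both.

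Hsp90ab1, the constant form, had levels of 6.35 and 6.32 in Trsp-RIPKO, 6.36 and 6.44 in Trsp-Ins1KO, and 6.06 and 6.11 in TrspFF. The arrays of both knockouts lay above TrspFF, by 0.25 in Trsp-RIPKO (adjusted p = 0.174) and 0.32 in Trsp-Ins1KO (adjusted p = 0.111). Quantile normalization lowered the Trsp-Ins1KO value to 0.14 for Hsp90ab1 and to 0.12 for Hsp90aa1. The direct difference between the knockouts was -0.07 (95% interval -0.28 to 0.14), the smallest among the members.

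Hspb1, the small heat shock protein HSP27 (HSP25 in mice), had levels of 1.91 and 2.00 in Trsp-RIPKO, 2.15 and 2.28 in Trsp-Ins1KO, and 1.75 and 2.07 in TrspFF. The spread between its TrspFF arrays was as wide as the difference of 0.31 in Trsp-Ins1KO (95% interval -0.04 to 0.66, adjusted p = 0.232), which was 0.15 without the first TrspFF array and 0.47 without the second. The difference in Trsp-RIPKO was 0.05 (adjusted p = 0.848).

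**Figure D2:**
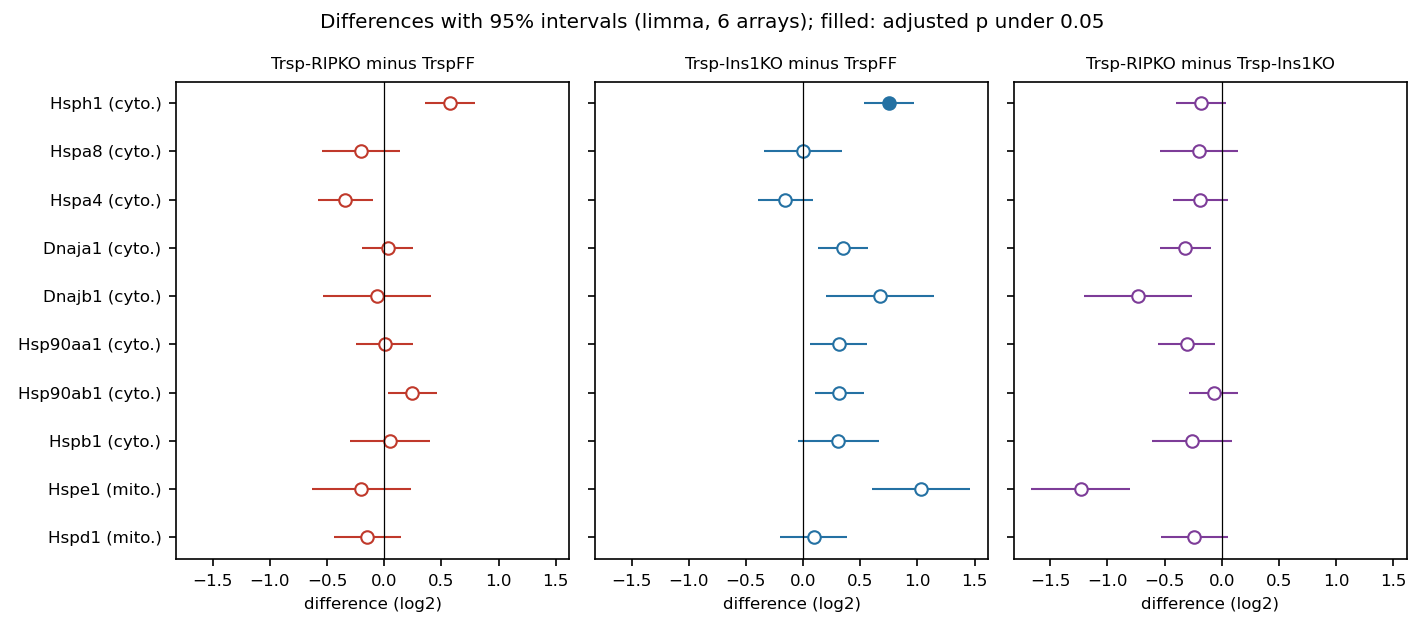
Differences in level (log2, horizontal axis) for the 10 chaperone genes with 95% intervals from limma, for Trsp-RIPKO minus TrspFF, Trsp-Ins1KO minus TrspFF and Trsp-RIPKO minus Trsp-Ins1KO. Hsph1 at 0.75 in the middle panel is the filled point, the value past the threshold, and all 10 points of the right panel lie below 0.

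The mitochondrial chaperones Hspe1 and Hspd1 work as 1 machine, and neither passed the test by its tested probe. Hspe1 encodes HSP10, the lid of the chamber. Its tested probe had levels of 2.67 and 2.58 in Trsp-RIPKO, 3.63 and 4.08 in Trsp-Ins1KO, and 2.86 and 2.79 in TrspFF. The Trsp-Ins1KO arrays lay above the other 4 and the Trsp-RIPKO arrays below them. The difference from TrspFF was 1.03 in Trsp-Ins1KO, or 2.04-fold (SE 0.167, 95% interval 0.60 to 1.46, adjusted p = 0.0633), and -0.20 in Trsp-RIPKO (95% interval -0.63 to 0.23, adjusted p = 0.490). Trsp-RIPKO minus Trsp-Ins1KO was -1.23 (SE 0.167, 95% interval -1.67 to -0.80, unadjusted p = 0.00079, adjusted p = 0.265), the value furthest from 0 among the members in any comparison.

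The 3 probes of Hspe1 disagreed against TrspFF. A second probe had levels of -0.66 and -0.74 in Trsp-RIPKO, 0.10 and 0.25 in Trsp-Ins1KO, and 0.28 and 0.20 in TrspFF. It fell in Trsp-RIPKO by 0.94 (SE 0.0978, adjusted p = 0.0323 in the fit over all kept probes), and in Trsp-Ins1KO it overlapped with TrspFF at -0.06 (adjusted p = 0.706). Leaving out any single array ended that call, with adjusted p between 0.0532 and 0.208. The remaining probe had 3.18 on the first Trsp-RIPKO array and a flagged spot on the second, so it was left out of the fits. It had 4.03 and 4.47 in Trsp-Ins1KO, and 3.29 and 3.22 in TrspFF. Each probe was lower in Trsp-RIPKO than in Trsp-Ins1KO on every array that measured it, with a difference of -0.88 for the second (adjusted p = 0.267). Against TrspFF, the tested and the remaining probe placed Trsp-Ins1KO higher, whereas the second placed Trsp-RIPKO lower. Whether the probes read different transcripts, or processed copies of this gene elsewhere in the genome, was not tested. The mean of the 2 kept probes gave -0.57 in Trsp-RIPKO (adjusted p = 0.104) and 0.48 in Trsp-Ins1KO (adjusted p = 0.117) against TrspFF.

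**Figure D3:**
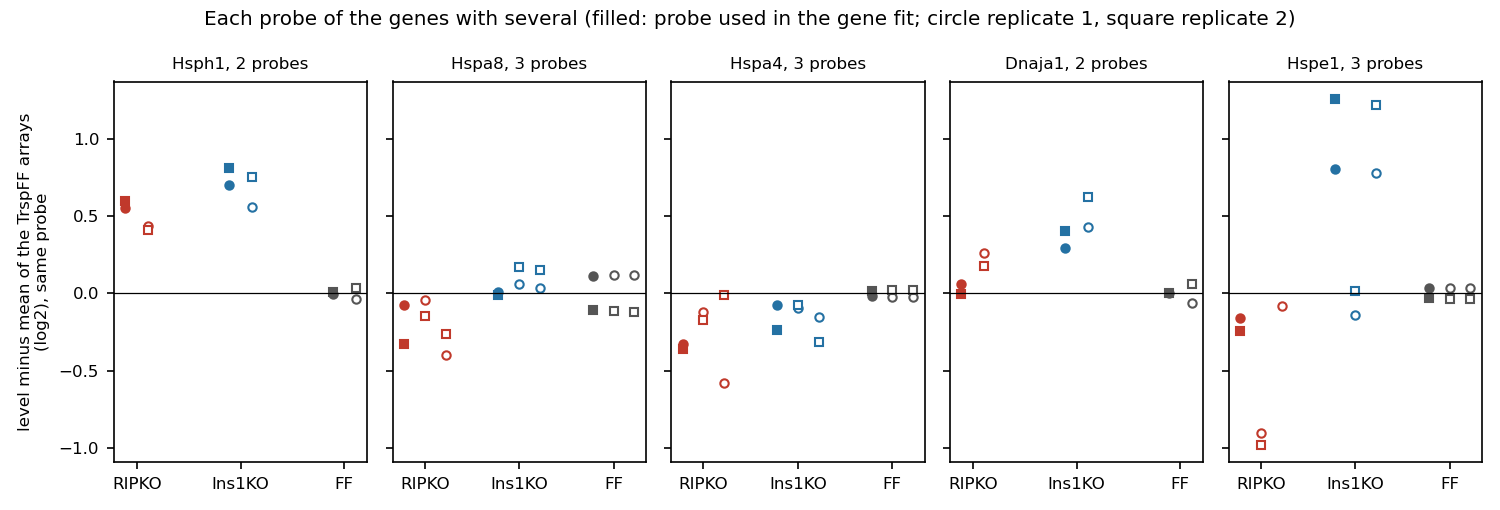
Level of every probe minus the mean of its 2 TrspFF arrays (log2, vertical axis) for the 5 chaperone genes with several probes, in Trsp-RIPKO (red), Trsp-Ins1KO (blue) and TrspFF (grey), with the tested probe filled. The probes of Hsph1 lie above 0 on all knockout arrays, whereas those of Hspe1 differ: in Trsp-Ins1KO the second probe (levels 0.10 and 0.25) stays near its TrspFF mean and the other 2 lie well above theirs.

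Hspd1 encodes HSP60, the chamber itself, and shares its promoter region with Hspe1. Its level was 3.50 and 3.32 in Trsp-RIPKO, 3.56 and 3.75 in Trsp-Ins1KO, and 3.55 and 3.58 in TrspFF. The Trsp-RIPKO arrays lay below TrspFF, with a difference of -0.15 (adjusted p = 0.456), and the Trsp-Ins1KO arrays overlapped with it at 0.09 (95% interval -0.20 to 0.39, adjusted p = 0.631). The difference between Hspe1 and Hspd1 was not tested.

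Both knockouts were set against the same 2 TrspFF arrays, so their comparisons are not independent. In Trsp-RIPKO, 2 members lay above TrspFF without overlap (Hsph1 and Hsp90ab1) and 3 below it (Hspa4, Hspe1 and Hspd1), while 28.2% of all tested genes lay above and 29.9% below. In Trsp-Ins1KO, 7 of 10 lay above and Hspa4 below, while 31.7% of all genes lay above and 26.5% below. Of the brightest 10% of genes, to which 8 of the members belong, 60.8% lay above and 13.2% below. The cytosolic members had a median of 0.02 in Trsp-RIPKO and 0.31 in Trsp-Ins1KO, and the mitochondrial pair had -0.18 in Trsp-RIPKO and 0.56 in Trsp-Ins1KO. The value of 0.56 lies between 1.03 for the tested Hspe1 probe and 0.09 for Hspd1. The second Hspe1 probe had -0.06 there, so 0.56 does not describe both genes.

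Between the knockouts, which share a slide, the members had a median of -0.25 (Trsp-RIPKO minus Trsp-Ins1KO), with -0.23 for the cytosolic and -0.74 for the mitochondrial genes. The latter lies between -1.23 for Hspe1 and -0.24 for Hspd1. All 10 members lay lower in Trsp-RIPKO without overlap, as did 35% of all tested genes and 60.2% of the brightest 10%. Of all tested genes 23.1% lay above in this way. The members are bright, and 8 of them belong to the brightest 10% of tested genes. That 10% had medians of 0.18 in Trsp-Ins1KO against TrspFF and -0.15 in Trsp-RIPKO minus Trsp-Ins1KO, and 76.3% of its genes were positive in Trsp-Ins1KO against TrspFF. Quantile normalization, which forces the arrays to 1 distribution, brought the 2 medians of the brightest 10% to 0.03 and -0.01 and those of the members to 0.17 and -0.15. Under it, Hspa8 (0.02) and Hsp90ab1 (0.14) were higher in Trsp-RIPKO than in Trsp-Ins1KO.

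Within the knockouts the members did not spread evenly over the replicates. The second Trsp-Ins1KO array was the highest of the 6 for 7 of 10 members and the second Trsp-RIPKO array the lowest for 6. The brightest 10% of tested genes had the same extremes. With each gene centred on its mean over the arrays, their median was highest on that Trsp-Ins1KO array (0.12) and lowest on that Trsp-RIPKO array (-0.10). The share of all tested genes with these extremes was not counted. The second Trsp-Ins1KO array was also the one with low choroid plexus genes, where Ttr, the transthyretin gene, had a level of -0.99 against 5.34 on the first. The cortex and hippocampus list of 8 genes had a mean level of -1.15 and -1.15 in Trsp-RIPKO, -2.06 and -4.06 in Trsp-Ins1KO, and -2.30 and -1.48 in TrspFF. The hypothalamus list had a mean level of -0.71 and -0.80 in Trsp-RIPKO, -0.13 and -0.04 in Trsp-Ins1KO, and -0.48 and -0.88 in TrspFF over 15 of 16 genes. This mean was thus highest in Trsp-Ins1KO. Of the 15 genes 14 were positive there against TrspFF, and Sim1 had -1.07.

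The striatal list of 9 genes had a lower mean level in both knockouts. The mean was -1.06 and -1.09 in Trsp-RIPKO, -1.24 and -1.13 in Trsp-Ins1KO, and -0.53 and -0.13 in TrspFF. Against TrspFF, 8 of the 9 genes were negative in each knockout. Rasd2 was not, with 0.03 in Trsp-RIPKO and 0.25 in Trsp-Ins1KO, where both its arrays lay above TrspFF. Gpr6, an orphan receptor, passed in Trsp-RIPKO (-0.78, adjusted p = 0.0294) and in Trsp-Ins1KO (-0.58, adjusted p = 0.0472), and leaving out any single array ended both calls. Adora2a, an adenosine receptor, had -1.76 in Trsp-RIPKO (adjusted p = 0.0653) and passed in Trsp-Ins1KO (-2.41, adjusted p = 0.0379), a call that held in 1 of 6 fits that left out an array. The mean level of the general neuron list lay between 4.19 and 4.35 on every array. Single genes of it could vary more, as Nefl had 3.57 and 4.23 in TrspFF. The mean level of 16 immediate early genes was 0.07 and 0.19 in Trsp-RIPKO, -0.11 and -0.81 in Trsp-Ins1KO, and -0.61 and -0.15 in TrspFF. Of the 7 pituitary genes 5 were too dim to be kept. The other 2, Lhb and Cga, lay lower in both knockouts than in TrspFF without overlap. So did 29.9% of all tested genes in Trsp-RIPKO and 26.5% in Trsp-Ins1KO. Cga had -6.67 and -6.97 in Trsp-RIPKO, -7.25 and -8.07 in Trsp-Ins1KO, and -1.82 and -5.91 in TrspFF. The filter can keep a dim gene through 1 group where it is high, which favours lower values elsewhere. No conclusion is drawn from the direction of these genes.

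Vascular and oligodendrocyte lists also separated the knockouts. Pericyte and smooth muscle genes had a mean level of -1.55 and -1.44 in Trsp-RIPKO, -2.05 and -2.08 in Trsp-Ins1KO, and -1.59 and -1.42 in TrspFF, so both Trsp-Ins1KO arrays were low. Between the knockouts 6 of 6 of these genes (median 0.58) and 7 of 8 oligodendrocyte genes (median 0.28) were higher in Trsp-RIPKO without overlap. Of 8 endothelial genes 6 were higher and Kdr was lower without overlap (median 0.71). Of all tested genes 23.1% lay higher in this way and 35% lower. Lower without overlap were 4 of 7 astrocyte genes (57.1%, median -0.22) and 3 of 7 microglia genes (42.9%, median -0.17), the latter near the share of all genes. The part of these shifts in the chaperone values was not tested. Without the second Trsp-Ins1KO array, the median of the members was 0.29 in Trsp-Ins1KO against TrspFF and -0.24 in Trsp-RIPKO minus Trsp-Ins1KO, with Hsph1 at 0.70 (adjusted p = 0.152) and Hspe1 at 0.81 (adjusted p = 0.144) against TrspFF.

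**Figure D4:**
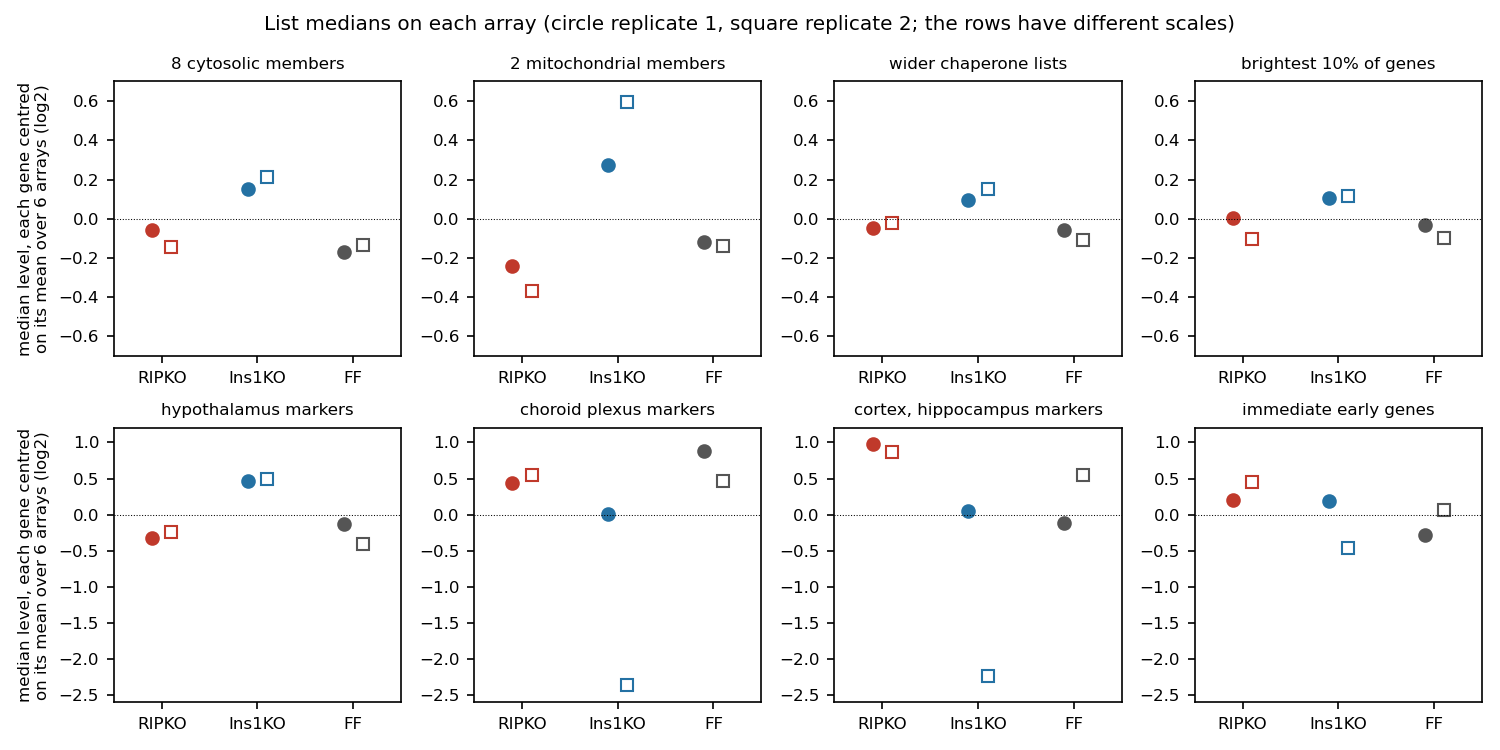
Median level of each gene list on each array after centring every gene on its mean over the 6 arrays (log2, vertical axis, with different scales in the upper and lower row), for Trsp-RIPKO (red), Trsp-Ins1KO (blue) and TrspFF (grey). The cytosolic, the mitochondrial and the wider chaperone medians are highest on the Trsp-Ins1KO arrays, as are those of the brightest 10% of genes and the hypothalamus markers, while the choroid plexus list drops on the second Trsp-Ins1KO array (square).

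The rest of the chaperone system comprised 87 tested genes of 91 listed, in lists of factors, partners and compartments. In Trsp-Ins1KO 76 of 87 were positive against TrspFF with a median of 0.20, and 60 (69.0%) lay above TrspFF without overlap. Of all tested genes 53.1% were positive and 31.7% lay above, and of the brightest 10% 76.3% were positive and 60.8% lay above. In Trsp-RIPKO 50 of 87 were positive with a median of 0.04. Between the knockouts 52 of 87 lay lower in Trsp-RIPKO without overlap, which is 59.8% against 35% of all tested genes and 60.2% of the brightest 10%. The median of -0.15 was also that of the brightest 10%. Of the 87, 1 passed the test: Dnajc2, a J protein bound to ribosomes, fell in Trsp-Ins1KO by 0.77 (SE 0.104, adjusted p = 0.0472). Leaving out any single array ended this call too (adjusted p between 0.0534 and 0.182).

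Among the heat shock factors, Hsf1, the main activator of the heat shock response, had differences from TrspFF of 0.23 in Trsp-RIPKO and 0.12 in Trsp-Ins1KO, and Hsf2 had -0.48 in Trsp-RIPKO and 0.31 in Trsp-Ins1KO. Between the knockouts Hsf2 had -0.79, Hsf1 0.11 and Hsbp1, which binds heat shock factor trimers, -0.21, and Hsbp1 had 0.24 in Trsp-Ins1KO against TrspFF. Hsf4 had 0.70 in Trsp-RIPKO (adjusted p = 0.084) and 0.59 in Trsp-Ins1KO (adjusted p = 0.0984). Hspa1a, a stress-inducible HSP70 gene, was faint, with levels of -1.71 and -1.63 in Trsp-RIPKO, -1.26 and -0.45 in Trsp-Ins1KO, and -2.68 and -1.52 in TrspFF. The TrspFF arrays of Hspa1a differed by more than its difference in Trsp-RIPKO (0.43), and its difference in Trsp-Ins1KO was 1.25 (adjusted p = 0.181). Hspa2, an HSP70 known from testis, had 0.32 in Trsp-RIPKO (adjusted p = 0.111) and 0.34 in Trsp-Ins1KO (adjusted p = 0.0951) against TrspFF. Hspa12b had 0.32 and Hspa12a -1.15 in Trsp-RIPKO, and Hspa4l had 0.19 in Trsp-Ins1KO. Between the knockouts Hspa13 had -0.44, Hspa12b 0.25 and Hspa4l -0.26.

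Among 12 other J proteins, 6 were positive in Trsp-RIPKO (median -0.02) and 9 in Trsp-Ins1KO (median 0.13). Dnajc2 had -0.51 in Trsp-RIPKO (adjusted p = 0.0884), where Dnajc5, a J protein of synaptic vesicles, had -0.30 and Dnajb2 0.33. In Trsp-Ins1KO, Dnajb4 had 0.36 and Dnajb14 0.18. Between the knockouts Dnaja4 and Dnajc7 each had -0.22, and Dnajc2 had 0.26.

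Of the 19 co-chaperones of HSP70 and HSP90, 15 were positive in Trsp-Ins1KO with a median of 0.23, against 10 in Trsp-RIPKO with a median of 0.08. Stip1, the adaptor that joins HSP70 to HSP90, had levels of 1.78 and 1.86 in Trsp-RIPKO, 1.97 and 2.16 in Trsp-Ins1KO, and 1.42 and 1.49 in TrspFF. Like Hsph1 it was lowest on the TrspFF arrays, with 0.37 in Trsp-RIPKO (adjusted p = 0.139) and 0.61 in Trsp-Ins1KO (adjusted p = 0.0671). Ptges3, the HSP90 co-chaperone p23, had 0.23 in Trsp-RIPKO and 0.43 in Trsp-Ins1KO, and Chordc1 had 0.24 in Trsp-RIPKO and 0.54 in Trsp-Ins1KO, with adjusted p of at least 0.0732. Fkbp5, a co-chaperone of steroid receptors that glucocorticoids induce, had -0.46 in Trsp-RIPKO (adjusted p = 0.0969) and -0.42 in Trsp-Ins1KO (adjusted p = 0.0979). Between the knockouts the smallest p-values of this list belonged to Sugt1 (-0.33), Bag3 (-0.36), an exchange factor for HSP70, and St13 (-0.30), at adjusted p = 0.265 each.

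In the cytosolic chaperonin and prefoldin, 8 of 14 genes were positive in Trsp-RIPKO (median 0.07) and 14 of 14 in Trsp-Ins1KO (median 0.26). Pfdn4, a prefoldin subunit, had levels of -1.09 and -1.06 in Trsp-RIPKO, -0.62 and -0.55 in Trsp-Ins1KO, and -0.68 and -0.70 in TrspFF. It was lowest in Trsp-RIPKO, with -0.39 against TrspFF (adjusted p = 0.0915) and -0.50 against Trsp-Ins1KO (adjusted p = 0.265). In Trsp-RIPKO Cct6a had 0.50 and Pfdn5 0.25, and in Trsp-Ins1KO Pfdn5 had 0.46, Cct8 0.31 and Cct7 0.30. Between the knockouts Cct5 had -0.34 and Pfdn2 -0.44.

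In the endoplasmic reticulum, 8 of 13 chaperones were positive in Trsp-RIPKO (median 0.05) and 12 of 13 in Trsp-Ins1KO (median 0.29). Hspa5, the HSP70 of that compartment, had levels of 3.84 and 3.83 in Trsp-RIPKO, 4.25 and 4.45 in Trsp-Ins1KO, and 4.15 and 3.85 in TrspFF. In Trsp-RIPKO against TrspFF, Pdia6, a disulfide isomerase, had -0.29, while the lectin chaperones Calr and Canx had 0.22 and 0.12. In Trsp-Ins1KO against TrspFF, Sdf2l1 had 0.89, Calr 0.47 and Hsp90b1 0.35. Between the knockouts Hspa5 had -0.52, Manf -0.46 and Pdia6 -0.44, at adjusted p = 0.265 each.

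The 12 other mitochondrial chaperones and proteases had medians of 0.01 in Trsp-RIPKO and 0.09 in Trsp-Ins1KO. Clpp, the peptidase of the ClpXP protease, had 0.17 in Trsp-RIPKO and 0.30 in Trsp-Ins1KO (adjusted p = 0.115), and the protease gene Htra2 had 0.18 in Trsp-RIPKO and 0.27 in Trsp-Ins1KO. Dnaja3 had 0.18 in Trsp-RIPKO, and Grpel1, the exchange factor of mitochondrial HSP70, had 0.30 in Trsp-Ins1KO. Between the knockouts Hscb had -0.33, Grpel1 -0.20 and Hspa9, the mitochondrial HSP70 itself, -0.17.

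Of the 5 other small heat shock proteins, 5 were positive in Trsp-RIPKO (median 0.37) and 4 in Trsp-Ins1KO (median 0.12). Hspb6 had 0.45 in Trsp-RIPKO and 0.55 in Trsp-Ins1KO, and Cryab, alpha-B crystallin, had 0.37 in Trsp-RIPKO and 0.23 in Trsp-Ins1KO. Hspb3 had 0.42 in Trsp-RIPKO, and Hspb2 had -0.36 in Trsp-Ins1KO. Between the knockouts Hspb2 had 0.58, Hspb3 0.33 and Cryab 0.14. Besides Dnajc2 in Trsp-Ins1KO, none of the named genes of these 8 lists passed the test.

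**Figure D5:**
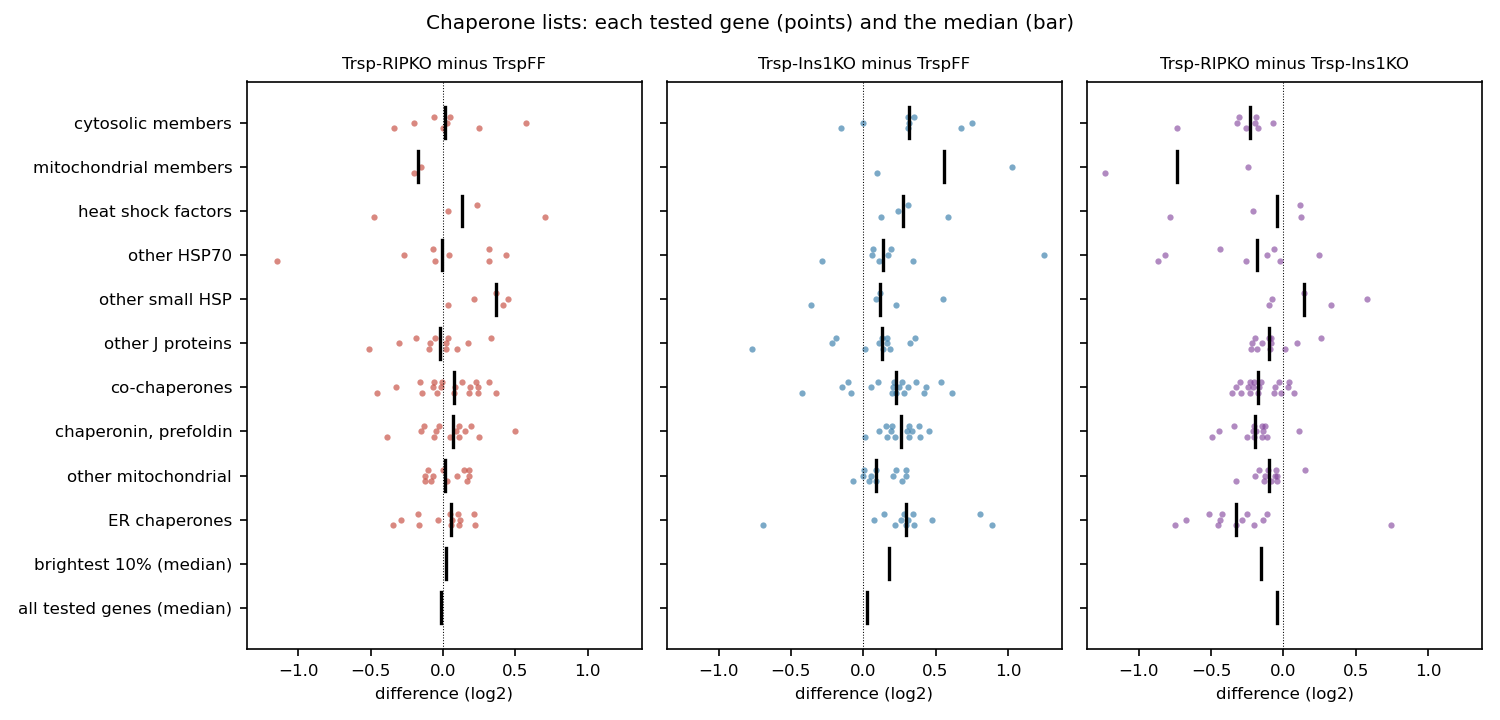
Difference in level (log2, horizontal axis) of each tested chaperone gene (points) with the median of its list (bar), for Trsp-RIPKO minus TrspFF, Trsp-Ins1KO minus TrspFF and Trsp-RIPKO minus Trsp-Ins1KO, above the medians of the brightest 10% and of all tested genes. In the middle panel all list medians are above 0, from 0.09 to 0.56, against 0.18 for the brightest 10% and 0.02 for all genes.

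Among genes with a usual symbol, the 5 whose centred levels over the 6 arrays lay nearest to those of Hsph1 were Cuta, Myl6b, Pced1b, Rps15 and Pcsk1n (ranks 1, 3, 5, 6 and 7 of all tested genes), with root mean square differences between 0.04 and 0.07 log2. None of them is a chaperone of the lists. The nearest member was Hsp90ab1 at 0.19, which ranked 991 among all tested genes, and Hspe1 at 0.46 was the furthest.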

How the data were processed

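RNA of mouse hypothalamus was labelled with Cy3 by a low-input kit and hybridised to single-colour Agilent arrays, per the labels' protocols. In the deposited scanner files each spot has a background-subtracted intensity, read with Agilent Feature Extraction 10.7.3.1 per the file headers, and the annotation is that of mm9. Log2 values centred on each probe make up the deposited value table, with column medians of 0.03, -0.01, 0.05, -0.01, -0.01 and -0.05. It was used as an alternative only. The scaling and centring that the authors applied are not given in the sources used here.

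From the scanner files, 43020 non-control spots were averaged by probe after flagged spots were left out, which gave 39429 probes, 118 of them without a value on some array. The log2 signal minus the log2 75th percentile of the array was tested. A probe was kept when well above background on both arrays of a group, which left 28065, and the brightest stood for each of 22863 genes. Symbols came from transcript accessions through a RefSeq table of GRCm38.p6, for 26055 probes (66.1%), and promoter windows from the same build. The 3 comparisons used limma 3.58.1 under R 4.3.3 (a linear fit over the 6 arrays with lmFit, then eBayes, two-sided, Benjamini-Hochberg at 0.05), and the method was tested on simulated data. The number of arrays limits the precision.

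Members, lists and tests were chosen with earlier results of these data known, so no list's direction is independent evidence. Genes named were all members and, from each chaperone list and comparison, those past the threshold up to 6 or otherwise the 3 with the smallest p, with up to 3 from each tissue list. The 5 genes with a usual symbol nearest to Hsph1 were also named. Some list genes (Hsf1, Hspa1a, Chordc1, Fkbp5, Dnajb4 and Dnajb14) are given in comparisons beyond those in which the rule named them. Levels of markers of the dissection (Pomc, Oxt, Sim1, Six6, Rasd2, Ttr, Lhb and Cga) were named after their values were seen. Alternatives were quantile normalization, median scaling, normexp with an offset of 50 on the median signal of spots, the value table, no filter, a filter on all 6 arrays, the mean of the probes, a fit over all kept probes, eBayes with trend and robust, the 2 groups alone, a replicate block and leaving out each array. A block for slide could not be fitted with TrspFF.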

Additional observations from a re-analysis of the deposited data

Results flagged for a closer look

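Hspe1 stood out because both Trsp-RIPKO arrays lay below both TrspFF arrays and both Trsp-Ins1KO arrays lay above them. The direct difference, Trsp-RIPKO minus Trsp-Ins1KO, was -1.23 and did not pass the test (adjusted p = 0.265). A probe of Hspe1 that was left out of the fits for a flagged spot on 1 Trsp-RIPKO array also carried signal, with a difference of 0.998 in Trsp-Ins1KO minus TrspFF, where the tested probe had 1.03. It was not tested. The second fitted probe overlapped with TrspFF in Trsp-Ins1KO (-0.06), so arrays on both sides of TrspFF were seen for the tested probe and not for that one.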

How the results depend on the processing

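The members' differences kept their direction and side of the threshold in 458 recomputed values, changed direction in 36, gained the threshold in 5 and lost it in 11, and the cause of the others was not tested unless stated. These counts do not measure stability, since many settings repeat the tested difference and so keep its direction. Such settings were both other filters, the fit over all kept probes, trend and robust, the 2 groups alone and the replicate block. Leaving out an array of the group not compared also repeats it. The 36 include turns made by the exchanged names of the value table. Genes passing in Trsp-RIPKO against TrspFF numbered 373, but 0 with no filter on dim probes, 744 with trend and robust, 0 for the 2 groups alone, 0 with the replicate block and 0 to 529 on leaving out an array. In Trsp-Ins1KO against TrspFF they numbered 419, but 25, 1063, 0 and 0 in the same order, and 0 to 512. In Trsp-RIPKO against Trsp-Ins1KO the count of 4 was 1 under normexp, no filter and trend and robust, 2 with the filter on all 6 arrays, 360 for the 2 groups alone (the fit within the slide), 0 with the block and 0 to 360 on leaving out an array.

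Hsph1 in Trsp-RIPKO passed, giving 1 called member, under normexp (0.64, adjusted p = 0.0448), the value table's names (0.75, 0.0350), the filter on all 6 arrays (0.58, 0.0442) and trend and robust (0.0211), and 0 passed on leaving out any array. In Trsp-Ins1KO the call of Hsph1 ended, leaving 0, under quantile normalization (0.63, adjusted p = 0.0592), the value table's names (0.57, 0.0546), no filter (0.0942), the 2 groups alone (0.108), the replicate block (0.0900) and leaving out any array (0 in each). With trend and robust 2 members passed, Hspe1 joining at adjusted p = 0.0305. Outside the tested probes of the members, Dnajc2 passed under 5 of 10 other alternatives (adjusted p 0.0188 to 0.125) and the second Hspe1 probe under 4 of 8 (0.0115 to 0.0947), and both under 0 of 6 that leave out an array. Gpr6 passed under 6 of 10 in Trsp-RIPKO and 3 of 10 in Trsp-Ins1KO, and Adora2a under 7 of 10 in Trsp-Ins1KO. A group left with 1 array is assumed to vary like the others. Samples with the same number did not deviate together (r between -0.03 and 0.09), so the block rests on numbers only.

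The median of the members in Trsp-RIPKO against TrspFF was 0.0636 under median scaling, 0.31 in the value table and -0.13 to 0.0294 on leaving out an array. In Trsp-Ins1KO it was 0.17 under quantile normalization, 0.39 under median scaling, -0.0320 in the value table and 0.29 to 0.36 on leaving out an array. Between the knockouts it was -0.15 under quantile normalization, 0.25 in the value table and -0.33 to -0.23 on leaving out an array.

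Signs turned for small values. In Trsp-RIPKO these were Dnaja1 (-0.0255) and Hsp90aa1 (-0.00093) under normexp, Hsp90aa1 (-0.0060) under quantile normalization and Dnajb1 (0.0319) under median scaling. In Trsp-Ins1KO they were Hspa8 under normexp (0.0931), median scaling (0.0700) and the mean of probes (0.0675), and Hspd1 under quantile normalization (-0.0109). Between the knockouts they were Hspa8 (0.0214) and Hsp90ab1 (0.14) under quantile normalization. Leaving out an array gave, in Trsp-RIPKO, -0.0017 to 0.0598 for Dnaja1, -0.21 to 0.0875 for Dnajb1, -0.0684 to 0.0740 for Hsp90aa1 and -0.11 to 0.21 for Hspb1. In Trsp-Ins1KO it gave 0.15 to 0.47 for Hspb1, -0.11 to 0.11 for Hspa8 and -0.0041 to 0.19 for Hspd1.

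The value table exchanges the knockouts' names, which by construction turns the values. It gave Dnajb1 0.67, Hspe1 1.03 and Hspd1 0.0924 in Trsp-RIPKO, and Dnajb1 -0.0638, Hsp90aa1 -0.00031, Hspe1 -0.20 and Hspd1 -0.15 in Trsp-Ins1KO. Between the knockouts all 10 members turned: Hsph1 0.18, Hspa8 0.20, Hspa4 0.19, Dnaja1 0.32, Dnajb1 0.74, Hsp90aa1 0.31, Hsp90ab1 0.0736, Hspb1 0.26, Hspe1 1.24 and Hspd1 0.24. Signal limits little here, since all 18 probes were well above background on at least 5 arrays. With 2 arrays a group, differences under about the width of the intervals given cannot be shown.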
